A study of Saccharomyces cerevisiae with 8 samples.

Results

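RNA sequencing of the *sin3∆* and *mig1∆* derivatives of the yeast ScY01a was set side by side, to ask which genes each lost repressor left on relative to the other. The 4 libraries of the contrast, of 8 in the series, were the *sin3∆* replicates 1 and 2 and the *mig1∆* replicates 1 and 2. ScY01a is a haploid of mating type **a** derived from the industrial, thermotolerant strain ScY01. In each deletion strain the KanMX marker replaced the target gene, so both strains of the contrast carry KanMX and both have the ScY01a background. The *mig1∆* strain came from an earlier study and the *sin3∆* strain was made for this one. All cultures were grown at 30°C in YP medium with 200 g/L glucose for 10 h. The paper gives early log phase for its cultures at a higher temperature, which were another batch. Whether the strains used here were at the same growth phase was not tested. The wild type ScY01a (replicates 2 and 3) told which genes are silent when both repressors are present, and *srb2∆* (replicates 2 and 3), which lacks a subunit of the Mediator head, entered the fit for the spread and for one comparison. Of 6103 genes with values, 5628 had at least 1 RPKM in at least 2 libraries and were tested. RPKM is a level of reads corrected for gene length and for the size of the library.

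Sin3p is the scaffold of the Rpd3 histone deacetylase complexes of yeast. The large complex, Rpd3L, is brought to promoters by DNA-binding proteins such as Ume6p, which binds the URS1 element upstream of early meiotic genes, and removal of acetyl groups from histone tails there keeps these genes off in mitotic cells. Mig1p is a zinc finger protein that binds GC-rich sites upstream of genes for the use of sugars other than glucose, and it recruits the co-repressor Tup1p-Cyc8p while glucose is plentiful. The kinase Snf1p exports Mig1p from the nucleus when glucose runs out. A scaffold without DNA binding of its own and a repressor that reads DNA directly were thus lost in the 2 strains.

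The deleted genes followed the labels. *SIN3* was listed at 0 in both *sin3∆* libraries, against 26.5 and 20.8 RPKM in *mig1∆*. *MIG1* had 22.7 and 22.9 RPKM in *sin3∆* and was listed at 0 in both *mig1∆* libraries. Cytosolic ribosomal protein genes took 41.1% of the summed RPKM in each *sin3∆* library, against 24.1% and 25.9% in *mig1∆* and 19.3% and 22.5% in the wild type. On the first principal component, which held 64.2% of the variance, the *sin3∆* libraries lay at 39.5 and 38.0 beside those of *srb2∆*, and the *mig1∆* libraries at -37.3 and -34.3 beside the wild type. The labels do not say whether replicates were separate cultures. The study states biological duplicates for its cultures at 40°C, and that the 30°C cultures used here came from another batch of experiments. The p-values measure the spread between these libraries, which may be technical. Read counts were not used, and the study gives depth as an average over its libraries only, so the depth of each library is unknown. Of the 7 **a**-cell markers, *MFA1* and *MFA2* were listed at 0 in all libraries. The other 5 made a summed level of 295 and 267 RPKM in *sin3∆*, against 806 and 768 RPKM in *mig1∆*. The α-cell receptor gene *STE3* stayed at or below 0.352 RPKM in the 4 libraries, but other α-cell markers were read. All 4 α-cell markers summed to 28.8 and 32.0 RPKM in *sin3∆*, against 43.55 and 36.6 RPKM in *mig1∆* and 41.3 and 38.8 RPKM in the wild type.

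Over all genes, 842 were higher in *sin3∆* than in *mig1∆* (15.0% of those tested) and 669 were lower (11.9%), at a difference of at least 2-fold and an adjusted p of at most 0.05 in limma. The median log2 difference of all genes was 0.00. Counts of called list members below are to be read beside these shares. Set against the wild type in the same fit, 995 genes were higher (17.7%) and 685 lower (12.2%) in *sin3∆*, while 56 were higher (0.995%) and 37 lower (0.657%) in *mig1∆*. These comparisons share the wild-type libraries, so values against the wild type are given below only beside the direct contrast. Fold changes are on the log2(RPKM + 1) scale, which understates the change of low genes. The higher *sin3∆* share of ribosomal protein transcripts stands beside every level given here. With a scaling that left out the ribosomal protein genes, 877 genes were called higher and 632 lower in *sin3∆* than in *mig1∆*. Any other part of that share in the differences was not tested.

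A gene was taken as silent where it lay under 1 RPKM in both wild-type libraries, and as on in a strain where it reached 4 RPKM in both libraries of that strain. There were 534 silent genes, of which 451 were protein-coding, 57 were snoRNA genes and 309 were listed at 0 in every library. In *sin3∆*, 23 silent genes were on. In *mig1∆*, 0 were on, and 2 reached 2 RPKM in both libraries. With the single library left when its partner was dropped, the counts were 27 and 37 in *sin3∆*, the larger without replicate 2, and 3 and 4 in *mig1∆*. Reading silence without wild-type replicate 2 gave 37 genes in *sin3∆* and 10 in *mig1∆*. Only 68 silent genes passed the filter on low values and were tested, so the calls among them are no share of the silent genes. Of these 34 were called higher and 5 lower in *sin3∆* than in *mig1∆*. Leaving out *sin3∆* replicate 2 cut the lower count to 3. The threshold fell between *VEL1*, on with 4.67 and 4.40 RPKM in *sin3∆*, and *DFP4*, not counted with 4.45 and 3.19 RPKM.

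**Figure D1:**
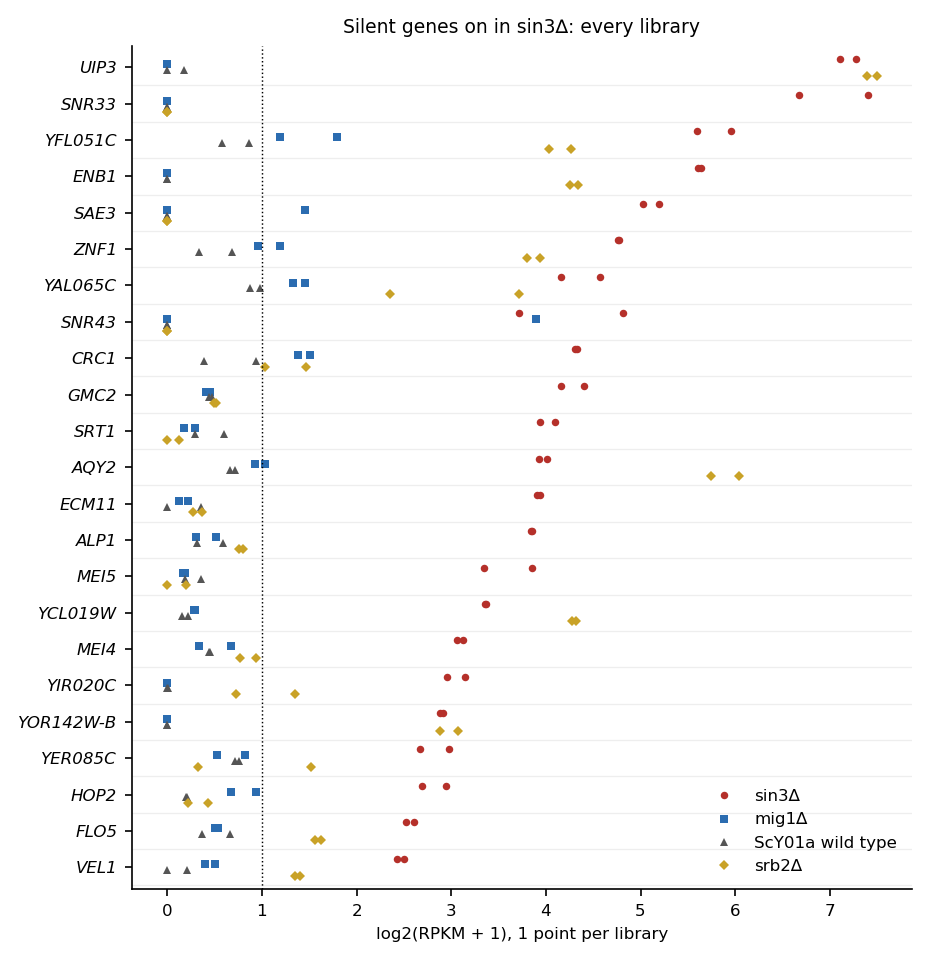
The 23 silent genes that were on in *sin3∆*, with log2(RPKM + 1) on the x axis, 1 point for each library of *sin3∆*, *mig1∆*, the wild type and *srb2∆*, and the dotted line at 1 RPKM. The *sin3∆* points lie to the right of the *mig1∆* points for 22 of the genes, and those of *SNR43* overlap; *AQY2*, *UIP3* and *YCL019W* are higher still in *srb2∆*.

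Of the 23 genes, 6 belong to the list of 31 early meiotic genes. Many of their products help to pair and join homologous chromosomes in meiosis, and others, such as the kinase Ime2p, are regulators. *SAE3*, whose protein loads the meiotic recombinase Dmc1p, had 35.6 and 31.7 RPKM in *sin3∆*, against 1.73 and 0 RPKM in *mig1∆* and 0 in both wild-type libraries. *MEI5*, the partner of Sae3p in that step, had 13.5 and 9.18 RPKM in *sin3∆*, against 0.141 and 0.124 RPKM in *mig1∆*. Both genes had their libraries well apart between the strains (log2 difference 4.39 ± 0.42 SE, adjusted p = 5.97e-05, and 3.42 ± 0.24 SE, adjusted p = 1.43e-05 in limma). *GMC2* and *ECM11* code for a pair of proteins that help to assemble the synaptonemal complex. *GMC2* had 20.1 and 16.9 RPKM in *sin3∆*, against 0.370 and 0.333 RPKM in *mig1∆* (log2 difference 3.85 ± 0.18 SE, adjusted p = 2.03e-06). *ECM11* had 14.3 and 14.0 RPKM in *sin3∆*, against 0.088 and 0.162 RPKM in *mig1∆* (log2 difference 3.75 ± 0.21 SE, adjusted p = 4.55e-06). For neither gene did a *mig1∆* library come near a *sin3∆* library. *MEI4*, needed for meiotic double-strand breaks, had 7.32 and 7.71 RPKM in *sin3∆* and 0.598 and 0.266 RPKM in *mig1∆*. *HOP2*, which guides pairing of homologous chromosomes, had 6.67 and 5.46 RPKM in *sin3∆* and 0.598 and 0.922 RPKM in *mig1∆*. All 6 were called higher in *sin3∆* than in *mig1∆*, and no *mig1∆* library reached 2 RPKM for any of them. The *sin3∆* libraries chose the 23 genes, so these calls and p-values against *mig1∆* are a description only.

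The URS1 core, AGCCGCC, was looked for on both strands of the 500 bases before the start codon in the RefSeq R64 genome of the laboratory strain S288C, to show where the letters stand upstream of meiotic genes that came on. ScY01a may differ from it. The windows below hold the core in capitals, here as written or as GGCGGCT for its reverse complement, with the gene reading to the right. They are chrVIII:262644-262674 for *SAE3*, chrXVI:321739-321769 for *MEI5*, chrV:239852-239882 for *MEI4*, all on the minus strand, and chrVII:435484-435514 for *HOP2* on the plus strand.
SAE3: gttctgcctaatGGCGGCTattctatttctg
MEI5: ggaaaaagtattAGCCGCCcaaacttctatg
MEI4: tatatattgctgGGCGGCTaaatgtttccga
HOP2: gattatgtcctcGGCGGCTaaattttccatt
The core began 109, 127, 96 and 129 bases before the start codon of *SAE3*, *MEI5*, *MEI4* and *HOP2*. Of 5975 protein-coding genes, 247 held it in the same window (4.13%). Among the silent genes on in *sin3∆* it stood in 4 of the 6 early meiotic ones, and the letters were not in the windows of *GMC2* and *ECM11*. It stood in 2 of the other 15 genes with a window, *SRT1* and *CRC1*. A match is a run of letters only, not a shown site of binding.

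Over the whole early meiotic list, 30 of 31 members were tested, 22 were called higher in *sin3∆* than in *mig1∆* and 0 lower, with a median log2 difference of 1.80 beside 0.00 for all genes. *REC8* did not pass the filter. Because a silent member passed only where some strain raised it, the count leans to rises. The largest rise was that of *MND1*, the partner of Hop2p, with 168 and 191 RPKM in *sin3∆*, against 2.89 and 3.43 RPKM in *mig1∆* and 5.19 and 5.26 RPKM in the wild type. Its log2 difference was 5.44 ± 0.18 SE (adjusted p = 4.55e-07). *NDJ1*, which ties telomeres to the nuclear envelope in meiosis, had 22.4 and 23.96 RPKM in *sin3∆*, against 1.24 and 1.74 RPKM in *mig1∆*. *IME2*, the meiotic kinase, had 16.1 RPKM in both *sin3∆* libraries, against 6.55 and 5.77 RPKM in *mig1∆* (log2 difference 1.26 ± 0.14 SE, adjusted p = 1.31e-04). The *IME2* libraries did not overlap between the strains. Some members did not pass the test. *HOP1*, a component of the chromosome axis, had 15.1 and 16.9 RPKM in *sin3∆* and 16.5 and 17.3 RPKM in *mig1∆*, with overlapping libraries. *DMC1*, the recombinase itself, had 4.93 and 5.18 RPKM in *sin3∆* and 4.45 and 5.30 RPKM in *mig1∆*, again overlapping. The URS1 core stood upstream of 11 of the 22 members called higher and of 7 of the 9 others (77.8%), *HOP1* and *DMC1* among them.

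Of 25 tested genes of the middle and late sporulation list, 0 were called higher and 5 lower in *sin3∆* than in *mig1∆*, with a median log2 difference of -0.36. With quantile normalization 1 was called higher and 4 lower. *NDT80*, the activator of the middle genes, had 0.70 and 1.22 RPKM in *sin3∆*, against 4.32 and 3.41 RPKM in *mig1∆* (log2 difference -1.32 ± 0.20 SE, adjusted p = 7.31e-04). *SPS4*, a middle gene, had 2.38 and 2.06 RPKM in *sin3∆* and 9.99 and 9.83 RPKM in *mig1∆*. *SPR1*, a glucanase gene of late sporulation, had 1.54 and 1.39 RPKM in *sin3∆* and 6.65 and 7.60 RPKM in *mig1∆*. In these 3 genes every *sin3∆* library lay below every *mig1∆* library. *SPO20*, a t-SNARE gene of the prospore membrane, stood apart because *mig1∆* was the strain that moved. It had 0.88 and 0.44 RPKM in *sin3∆*, against 4.12 and 4.19 RPKM in *mig1∆* and 1.03 RPKM in each wild-type library (log2 difference of *mig1∆* over the wild type 1.34 ± 0.20 SE, adjusted p = 0.00756). The calls of *NDT80*, *SPR1* and *SPO20* were lost with a pseudocount of 5. The 6 markers of sporulating cells summed to 9.28 and 8.30 RPKM in *sin3∆*, against 24.7 and 22.2 RPKM in *mig1∆*.

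Of 10 regulators of entry into meiosis, *UME6* was called higher and *IME1* lower in *sin3∆*, counts near the 15.0% and 11.9% of all genes. *UME6*, the URS1-binding partner of the complex, had 39.1 and 37.1 RPKM in *sin3∆*, against 14.2 and 12.3 RPKM in *mig1∆* (log2 difference 1.46 ± 0.11 SE, adjusted p = 1.71e-05). *IME1*, the activator that converts Ume6p sites to activation in meiosis, had 0.92 and 0.49 RPKM in *sin3∆*, against 2.54 and 2.38 RPKM in *mig1∆* (log2 difference -1.03 ± 0.19 SE, adjusted p = 0.00172). The *IME1* call was lost at -0.81 with quantile normalization and at -0.85 without *sin3∆* replicate 2, and also without *mig1∆* replicate 1, with a pseudocount of 5 and in the test against 1.5-fold. Of 14 subunits of the Rpd3 complexes, *UME6* and *SAP30* were called higher, again near the share of all genes, and the deleted *SIN3* lower. *SAP30*, a subunit of Rpd3L, stood apart between the strains, with 231 and 235 RPKM in *sin3∆*, against 101 and 97.2 RPKM in *mig1∆*. *RPD3*, the deacetylase, had 47.2 and 49.3 RPKM in *sin3∆* and 80.9 and 73.8 RPKM in *mig1∆*, a log2 difference of -0.67 ± 0.07 SE, short of 2-fold. Of 11 metabolic targets of Ume6p, 4 were called higher and 2 lower, beside those same shares of all genes. *CAR1*, the arginase gene, had 1015 and 1014 RPKM in *sin3∆*, against 65.8 and 69.9 RPKM in *mig1∆* (log2 difference 3.88 ± 0.06 SE, adjusted p = 2.62e-08). *SIP4*, an activator of gluconeogenic genes, had 27.3 and 31.1 RPKM in *sin3∆*, against 0.99 and 0.88 RPKM in *mig1∆*. In both genes the libraries of the strains lay far apart. *INO1*, which makes inositol phosphate, went the other way with 2060 and 2097 RPKM in *sin3∆*, against 5581 and 5914 RPKM in *mig1∆*.

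The 17 silent genes on in *sin3∆* outside the meiotic list were of mixed kinds. Their calls and p-values against *mig1∆* are likewise a description only, since the *sin3∆* libraries chose them. *ENB1* (chromosome XV of R64, from 19491 to 21311) codes for the transporter of the siderophore enterobactin. It had 48.7 and 47.6 RPKM in *sin3∆* and was listed at 0 in both *mig1∆* and both wild-type libraries (adjusted p = 7.55e-08, *sin3∆* against *mig1∆*). *ZNF1*, a zinc cluster regulator of growth on nonfermentable carbon, had 26.2 and 26.3 RPKM in *sin3∆*, against 1.28 and 0.95 RPKM in *mig1∆*. *YFL051C*, its neighbour on chromosome VI, had 47.5 and 61.1 RPKM in *sin3∆*, against 1.28 and 2.46 RPKM in *mig1∆*. Neither pair of libraries overlapped (log2 difference 3.69 ± 0.16 SE, adjusted p = 1.45e-06, and 4.29 ± 0.23 SE, adjusted p = 3.70e-06). *SRT1*, a cis-prenyltransferase gene that is used in late sporulation, had 14.4 and 16.1 RPKM in *sin3∆*, against 0.229 and 0.133 RPKM in *mig1∆* (log2 difference 3.78 ± 0.21 SE, adjusted p = 4.11e-06). *ALP1*, an arginine transporter gene, had 13.5 and 13.4 RPKM in *sin3∆*, against 0.238 and 0.428 RPKM in *mig1∆* (log2 difference 3.44 ± 0.19 SE, adjusted p = 4.55e-06). *CRC1*, the mitochondrial carnitine carrier gene, had 19.0 and 18.8 RPKM in *sin3∆*, against 1.60 and 1.84 RPKM in *mig1∆* (log2 difference 2.87 ± 0.23 SE, adjusted p = 2.70e-05). All 3 were clear of overlap, and *CRC1* in *mig1∆* also lay above its wild-type values of 0.310 and 0.914 RPKM. The flocculin genes *FLO5*, *FLO9* and *FLO1*, near-identical in sequence, so that reads may be split between them, had log2 differences of 2.04 ± 0.19, 1.23 ± 0.21 and 1.22 ± 0.20 (SE). *FLO5* was the only one of them to be on, with 4.75 and 5.09 RPKM in *sin3∆* and 0.422 and 0.447 RPKM in *mig1∆*. The largest difference was that of *UIP3* (chromosome I, from 183770 to 184477), a member of the DUP240 family, with 154 and 137 RPKM in *sin3∆* and 0 in both *mig1∆* libraries. It was near 0 in the wild type and high in *srb2∆*, and whether the strains carry the same sequence there was not tested, so its values may not be those of 1 shared locus. *YCL019W* and *YOR142W-B* are reading frames of Ty elements, of which the genome has many copies, so their levels are uncertain. The snoRNA *SNR33* had 169 and 101 RPKM in *sin3∆* and was listed at 0 in *mig1∆*, and *SNR43* overlapped between the strains.

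The silent genes on in *sin3∆* were also read in *srb2∆*, since the libraries of both strains lay together on the first component. Over all genes tested between *sin3∆* and *srb2∆*, *sin3∆* was higher in 670 (11.9%) and lower in 166 (2.95%). The *sin3∆* libraries chose the 23 silent genes, so their counts against *srb2∆* are a description only. Of them, 17 were called higher in *sin3∆* than in *srb2∆*, 1 lower and 5 not called, and 8 were on in both strains. The 6 early meiotic genes among them lay at or below 0.922 RPKM in every *srb2∆* library. *UIP3* by contrast had 179 and 167 RPKM in *srb2∆*, and *AQY2*, an aquaporin gene, had 15.2 and 14.2 RPKM in *sin3∆*, against 64.7 and 52.5 RPKM in *srb2∆*. *ENB1*, *ZNF1* and *YFL051C* were also on in *srb2∆*, with 19.3 and 18.1, 13.0 and 14.3, and 18.3 and 15.3 RPKM. *SRT1*, *ALP1* and *CRC1* were not, with at most 0.086, 0.740 and 1.76 RPKM in *srb2∆*. Whether the strains carry the same sequence at *ENB1* was not tested.

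On the side of *mig1∆*, none of the 5 silent genes called lower in *sin3∆* reached 4 RPKM. *YHR210C* and *YNR071C*, both similar to aldose epimerases, were named after their values were seen. *YHR210C* had 0.78 and 0.45 RPKM in *sin3∆*, against 2.74 and 2.01 RPKM in *mig1∆* and 0.45 and 0.31 RPKM in the wild type (*mig1∆* over the wild type, log2 difference 1.28, adjusted p = 0.023). *YNR071C* had 0.10 and 0 RPKM in *sin3∆*, against 1.81 and 1.34 RPKM in *mig1∆*. The other 3, *YGR045C*, *YOR376W* and *YGL034C*, are short open reading frames with at most 2.02 RPKM in *mig1∆*. *YNR071C* and *YGL034C* were not called between *mig1∆* and the wild type. *YGL034C* had 1.07 and 2.86 RPKM in *srb2∆*. Its locus name is next to that of the deleted *MIG1* (YGL035C), and an effect of the KanMX marker there was not tested. The largest rise of *mig1∆* over the wild type just missed the definition of silence. *CUP1-1*, the copper metallothionein gene, had 14.1 and 28.6 RPKM in *sin3∆*, against 165 and 95.9 RPKM in *mig1∆* and 1.147 and 0 RPKM in the wild type (*mig1∆* over the wild type, log2 difference 6.44 ± 0.71 SE, adjusted p = 0.00266 in limma). It is 186 bases long, shares its values with the identical copy *CUP1-2*, and was named after its values were seen. In *sin3∆* it was also called higher than in the wild type, and lower than in *mig1∆*. *CUP1-1* had 54.8 and 238 RPKM in *srb2∆*, so it lay above the wild type in every deletion strain. Genes that *mig1∆* raised were mostly read in the wild type already. Of the 56 called higher in *mig1∆* than in the wild type, 3 were silent and 21 lay under 5 RPKM in both wild-type libraries. The median over these 56 genes was 11.9 RPKM in *sin3∆*, 41.6 RPKM in *mig1∆* and 7.56 RPKM in the wild type. Between the deletions, 32 of the 56 were lower and 6 higher in *sin3∆*, a description only, since the *mig1∆* libraries chose them.

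**Figure D2:**
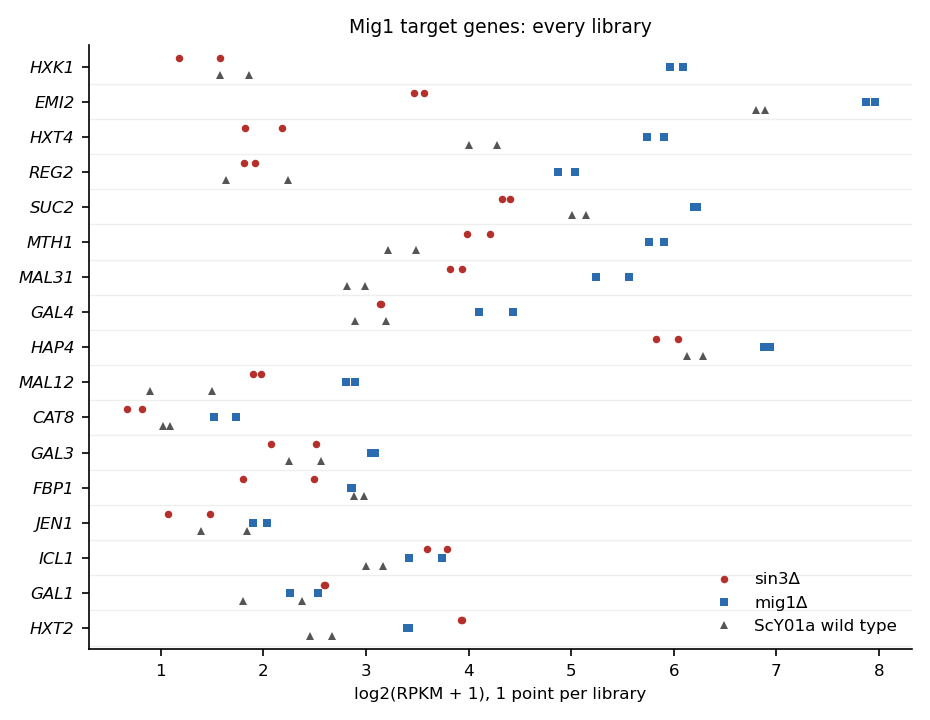
The 17 tested Mig1p target genes, with log2(RPKM + 1) on the x axis and 1 point for each library of *sin3∆*, *mig1∆* and the wild type. *HXK1* and *REG2* sit near the wild-type level in *sin3∆* and far to the right in *mig1∆*, while *EMI2* and *HXT4* in *sin3∆* lie to the left of the wild type.

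The list of 19 known Mig1p targets went against *sin3∆*. Of 17 tested, 0 were called higher and 8 lower in *sin3∆* than in *mig1∆*, with a median log2 difference of -0.98. Against the wild type, 9 of the 17 were called higher in *mig1∆*, and in *sin3∆* 1 was higher and 2 lower. *HXK1* (chromosome VI, from 253592 to 255049), the hexokinase isozyme that glucose represses, had 1.26 and 1.98 RPKM in *sin3∆*, against 67.0 and 61.3 RPKM in *mig1∆* and 2.62 and 1.99 RPKM in the wild type. *REG2*, a regulatory subunit of the phosphatase that opposes Snf1p, had 2.78 and 2.51 RPKM in *sin3∆*, against 31.9 and 28.4 RPKM in *mig1∆* and 2.10 and 3.71 RPKM in the wild type. The *sin3∆* libraries overlapped those of the wild type for *REG2* and lay just under them for *HXK1*, and the *mig1∆* libraries stood apart in both genes, with log2 differences of -4.65 ± 0.18 SE (adjusted p = 9.28e-07) and -3.09 ± 0.25 SE (adjusted p = 2.49e-05). *MTH1*, a co-repressor of hexose transporter genes, had 14.8 and 17.4 RPKM in *sin3∆*, against 58.8 and 53.0 RPKM in *mig1∆* and 10.2 and 8.25 RPKM in the wild type. *MAL31*, a maltose permease gene, had 14.3 and 13.1 RPKM in *sin3∆*, against 46.3 and 36.8 RPKM in *mig1∆* and 6.97 and 6.01 RPKM in the wild type. *SUC2*, the invertase gene (chromosome IX, from 37385 to 38983), had 19.1 and 20.2 RPKM in *sin3∆*, against 73.9 and 72.2 RPKM in *mig1∆* and 34.4 and 31.1 RPKM in the wild type. For these 3 genes the log2 differences were -1.74 ± 0.13, -1.53 ± 0.13 and -1.84 ± 0.08 (SE), all called, and *SUC2* in *sin3∆* lay below the wild type, short of 2-fold.

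Members of the list differed in which strain moved. *EMI2*, a glucokinase-like gene, had 10.0 and 10.9 RPKM in *sin3∆*, against 248 and 233 RPKM in *mig1∆* and 118 and 111 RPKM in the wild type. Both deletions were called against the wild type, in opposite directions (log2 difference -3.33 in *sin3∆* and 1.07 in *mig1∆*). *EMI2* was also low in *srb2∆*, with 6.07 and 6.75 RPKM. Of the 17 tested targets, 2 were called higher and 2 lower in *sin3∆* than in *srb2∆*. *GAL4*, the activator of galactose genes, had 7.79 and 7.86 RPKM in *sin3∆*, against 20.6 and 16.2 RPKM in *mig1∆*, and its call was lost at -0.96 without *mig1∆* replicate 1. *GAL1*, the galactokinase gene, had 5.08 and 5.03 RPKM in *sin3∆* and 4.797 and 3.77 RPKM in *mig1∆* and did not pass the test. *ICL1*, of the glyoxylate cycle, did not pass either, and *FBP1*, of gluconeogenesis, missed 2-fold at -0.71. *PCK1*, the gluconeogenic enzyme that glucose represses, had 0.43 and 0.59 RPKM in *sin3∆* and 0.97 and 1.26 RPKM in *mig1∆*, close to silence in both.

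Mig1p sites were looked for on both strands of the same 500-base windows. The letters taken as a site were GCGGGG, with CCGGGG also accepted, and CTGGGG likewise, as was GTGGGG. They are shown for 4 targets called higher in *mig1∆* than in the wild type. The capitals mark the site, which reads as its reverse complement in *HXK1* and *MTH1*. The windows are chrVI:255336-255365 for *HXK1*, chrII:338531-338560 for *REG2* and chrIV:1016114-1016143 for *MTH1*, on the minus strand, and chrIX:36934-36963 for *SUC2* on the plus strand.
HXK1: gtttctttctccCCCCGGattttggtacct
REG2: cgattgcatgtgGCGGGGcagcactggata
MTH1: ttaggatgactgCCCCACacatttcctcat
SUC2: ttaggaaattatCCGGGGgcgaagaaatac
Such a site stood upstream of 18 of the 19 list members (94.7%), beside 1357 of 5975 protein-coding genes (22.7%). It stood in 39 of the 56 genes called higher in *mig1∆* than in the wild type (69.6%), and the URS1 core in 3 of them (5.36%). Among the silent genes on in *sin3∆* a Mig1p site stood in 3 of 21 windows (14.3%). These sites share a run of G with the stress response element AGGGG, and overlaps between motifs were not removed.

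**Figure D3:**
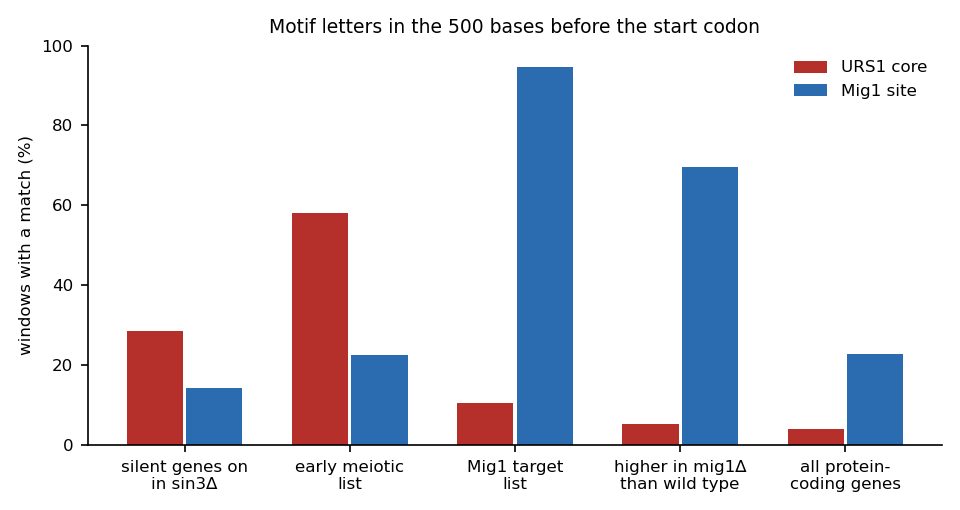
The share of 500-base windows before the start codon, in percent, that hold the URS1 core (red) or a Mig1p site (blue), for 3 sets of genes, the genes called higher in *mig1∆* than in the wild type, and all protein-coding genes. The URS1 core is in 58.1% of the early meiotic list and 28.6% of the silent genes on in *sin3∆*, and a Mig1p site in 94.7% of the target list.

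The lists for sugar uptake and use differed. Of 7 tested galactose genes, 0 were called higher and 2 lower in *sin3∆* than in *mig1∆*, with a median log2 difference of 0.14. Of 11 tested hexose transporter genes, 10 were called lower in *sin3∆* than in *mig1∆* and 0 higher, with a median log2 difference of -1.89. *HXT3*, a low-affinity transporter gene, had 447 and 479 RPKM in *sin3∆*, against 1757 and 1676 RPKM in *mig1∆* and 658 and 596 RPKM in the wild type. *HXT1* had 452 and 510 RPKM in *sin3∆*, against 1814 and 1678 RPKM in *mig1∆* and 866 and 774 RPKM in the wild type. In both genes *mig1∆* lay above the wild type (log2 difference 1.45 and 1.09) and the fall of *sin3∆* against the wild type missed 2-fold. *HXT4* and *HXT5* were called against the wild type in both deletions, lower in *sin3∆* and higher in *mig1∆*. *HXT5*, used in slow growth, had 10.5 and 12.7 RPKM in *sin3∆*, against 194 and 153 RPKM in *mig1∆* and 84.1 and 79.8 RPKM in the wild type. It was also low in *srb2∆*, with 10.2 and 12.8 RPKM. Of the 11 transporter genes, 0 were called higher and 3 lower in *sin3∆* than in *srb2∆*. For *HXT11* and *HXT9* the *mig1∆* libraries lay with the wild type. *HXT11* had 1.60 and 2.06 RPKM in *sin3∆*, against 39.9 and 37.1 RPKM in *mig1∆* and 45.2 and 38.3 RPKM in the wild type. These 2 genes are close paralogs, so reads may be split between them. *HXT2* was the member not called, with 14.3 and 14.2 RPKM in *sin3∆* and 9.58 and 9.68 RPKM in *mig1∆*.

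Of the 11 tested maltose, isomaltose and sucrose genes, 6 were called lower in *sin3∆* than in *mig1∆* and 0 higher, with a median log2 difference of -1.16. *IMA5*, an isomaltase gene, had 0.82 and 0.78 RPKM in *sin3∆*, against 8.22 and 7.31 RPKM in *mig1∆* and 5.08 and 7.26 RPKM in the wild type. The *mig1∆* libraries lay above both wild-type libraries, without a call, and the *sin3∆* libraries far below them. *IMA3* and *IMA4* carry the same values and cannot be told apart. *MAL33*, a maltose activator gene, and *MAL12*, a maltase gene, were called higher in *mig1∆* than in the wild type, with log2 differences of 1.48 and 1.65. Between the deletions they missed 2-fold at -0.99 and -0.91. *IMA1* had 8.97 and 8.29 RPKM in *sin3∆* and 8.62 and 8.43 RPKM in *mig1∆*, both above the 3.86 and 3.24 RPKM of the wild type. *MAL11* was listed at 0 in every library. In the glucose repression machinery, 20 genes tested, 2 were called higher and 5 lower in *sin3∆*. *MIG2*, the paralog of *MIG1*, had 41.8 and 43.7 RPKM in *sin3∆*, against 89.1 and 94.7 RPKM in *mig1∆* and 39.5 and 34.9 RPKM in the wild type. *NRG2*, another repressor gene, had 14.6 and 12.8 RPKM in *sin3∆*, against 83.5 and 95.4 RPKM in *mig1∆*. *NRG1*, its paralog, went the other way with 27.4 and 31.8 RPKM in *sin3∆*, against 12.7 and 8.29 RPKM in *mig1∆*. Of the called members, *MIG1* itself is the deleted gene. *TUP1* and *CYC8*, the co-repressor genes, had log2 differences of 0.59 ± 0.09 and -0.43 ± 0.08 (SE), under 2-fold.

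Of 14 tested regulators of nonfermentable carbon use, 2 were called higher in *sin3∆* than in *mig1∆*, *ZNF1* and *SIP4*, and 2 lower, *ADR1* and *HAP1*, counts near the 15.0% and 11.9% of all genes. *ADR1*, the activator of alcohol and fatty acid oxidation genes, had 5.43 and 5.66 RPKM in *sin3∆*, against 115 and 104 RPKM in *mig1∆* and 65.9 and 48.1 RPKM in the wild type (log2 difference -4.08 ± 0.14 SE, adjusted p = 5.70e-07). It was also low in *srb2∆*, with 4.38 and 4.34 RPKM. Against *srb2∆*, 3 of the 14 regulators were called higher and 0 lower in *sin3∆*. *HAP1*, the heme-responsive activator, was called at -1.05 and lost the call at -0.92 without *mig1∆* replicate 1. Of 15 peroxisomal fatty acid oxidation genes, 4 were called in each direction. *CAT2*, a carnitine acetyltransferase gene, had 16.9 and 15.3 RPKM in *sin3∆*, against 5.20 and 3.92 RPKM in *mig1∆*. *POX1*, which starts the oxidation of fatty acids, had 3.37 and 2.84 RPKM in *sin3∆*, against 14.3 and 12.6 RPKM in *mig1∆*. Of 12 tested genes of gluconeogenesis and the glyoxylate cycle, 3 were called higher and 1 lower. *CIT2*, peroxisomal citrate synthase, had 493 and 471 RPKM in *sin3∆*, against 29.4 and 29.5 RPKM in *mig1∆* (log2 difference 3.99 ± 0.10 SE, adjusted p = 1.49e-07). *MLS1*, malate synthase, had 3.34 and 3.46 RPKM in *sin3∆*, against 13.4 and 12.1 RPKM in *mig1∆*.

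**Figure D4:**
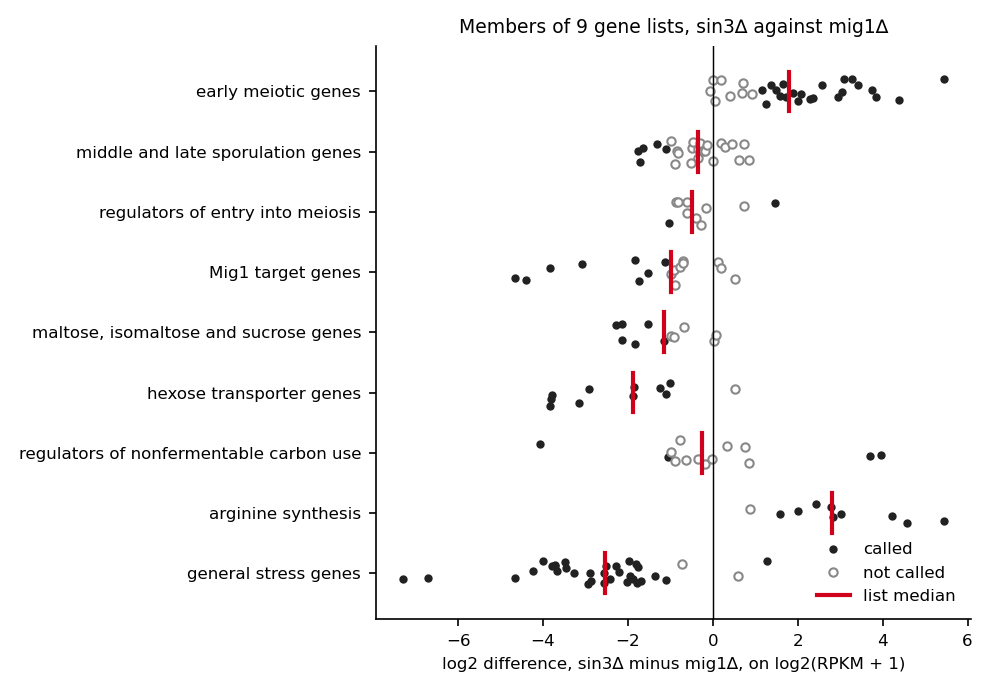
The log2 difference of *sin3∆* minus *mig1∆* on log2(RPKM + 1), on the x axis, for the tested members of 9 lists, with filled points for called genes, open points for genes not called and a red line at the list's median (deleted genes left out). The early meiotic list has its median at 1.80 with no called member below 0, and the Mig1p target list at -0.98 with no called member above 0.

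Of all genes whose higher strain averaged 10 RPKM or more, the largest rises in *sin3∆* were those of *UIP3*, *SNR33* and *ENB1*, given above, and of *BSC1*, *ZRT1*, *PRM7*, *ARG1* and *MND1*. *ZRT1*, the high-affinity zinc transporter gene, had 923 and 951 RPKM in *sin3∆*, against 14.6 and 12.3 RPKM in *mig1∆* (log2 difference 6.02 ± 0.09 SE, adjusted p = 1.98e-08). *ARG1*, argininosuccinate synthase, had 1079 and 1145 RPKM in *sin3∆*, against 23.1 and 26.2 RPKM in *mig1∆* (log2 difference 5.44 ± 0.08 SE, adjusted p = 1.98e-08). *ARG1* was the leading member of the arginine synthesis list, in which 9 of 10 were called higher and 0 lower, with a median log2 difference of 2.81. All 10 hold the Gcn4p site TGACTC in the 500-base window, on either strand, beside 12.7% of all protein-coding genes. *BSC1* and *PRM7* are neighbouring reading frames on chromosome IV, for which a shared sequence across strains was likewise not tested. *BSC1* had 191 and 204 RPKM in *sin3∆*, against 1.355 and 1.197 RPKM in *mig1∆*.

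The largest falls were those of *HSP12*, *DDR2*, *COX26*, *EGO4*, *NFG1*, *KTD1*, *YER188W* and *GIT1*. *HSP12*, a small membrane-protecting heat shock protein gene, had 9.51 and 14.0 RPKM in *sin3∆*, against 1822 and 2160 RPKM in *mig1∆* and 5590 and 6731 RPKM in the wild type (log2 difference -7.30 ± 0.18 SE, adjusted p = 1.33e-07). Here both deletions were called below the wild type. *GIT1*, a glycerophosphoinositol transporter gene, had 0 and 0.046 RPKM in *sin3∆*, against 34.3 and 37.2 RPKM in *mig1∆*. *DDR2* and *COX26*, genes of 186 and 201 bases, swung between 0 and much higher values within the wild type, and the *DDR2* call (adjusted p = 0.0463) was lost when any 1 of the 4 libraries was left out. Of 34 general stress genes, 31 were called lower and 1 higher in *sin3∆* than in *mig1∆*, with a median log2 difference of -2.53. The member called higher was *HSP30*, a plasma membrane heat shock protein gene, with 504 and 568 RPKM in *sin3∆*, against 212 and 226 RPKM in *mig1∆*. Against *srb2∆*, 15 of the 34 stress genes were called higher and 1 lower in *sin3∆* (median log2 difference 0.78). Of 5 tested **a**-cell genes, 4 were called lower. *BAR1*, the protease that degrades α-factor, had 9.84 and 9.15 RPKM in *sin3∆*, against 87.4 and 92.6 RPKM in *mig1∆* (log2 difference -3.12 ± 0.07 SE, adjusted p = 1.27e-07). *AGA2*, an agglutinin subunit gene, was called at -1.27 and lost the call at -1.15 without *sin3∆* replicate 2, and also without *mig1∆* replicate 1.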

How the data were processed

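RNA was sequenced with paired-end reads from 2 libraries of each of 4 strains. As the paper describes, the authors aligned reads to R64 with Bowtie2 and estimated gene levels with RSEM. The deposited table gives RPKM values, by its name TMM-normalized, and they were used as deposited. Other tables, which hold the authors' DESeq2 fold changes, p-values and FDR, were not used. Counts were not used here, so counting error is unknown.

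Genes at 1 RPKM or more in 2 or more libraries were fitted on log2(RPKM + 1) in limma 3.58.1 (R 4.3.3), with all strains sharing 1 spread, a trended prior and 4 residual degrees of freedom. A call needed 2-fold and an adjusted p (Benjamini-Hochberg, 5628 genes) of at most 0.05. The fit was tested on simulated data. The members and gene lists were chosen with earlier results of these data known, and lists are described by counts and medians, with no set test.

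The naming rule took *SIN3* and *MIG1*, the 12 largest rises and up to 8 falls among called silent genes whose libraries lay apart and whose higher strain averaged 4 RPKM, the 8 largest rises and falls of all genes averaging 10 RPKM, and, per list, up to 4 called members plus those called between *mig1∆* and the wild type. Every other gene named was chosen after its values were seen. Promoter letters came from RefSeq R64. Of 6103 genes, 5977 were matched to it by locus name and 123 by symbol.

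Alternatives were other scalings, filters, pseudocounts and thresholds, no trend, the 2 strains alone, a replicate block and leaving out each *sin3∆* or *mig1∆* library. Leaving out genes under 300 bases, silence under 5 RPKM or in a single wild-type library, and the alternatives for the lists and for the comparisons with the wild type were added after seeing the data. Tables were handled with pandas 2.3.3 and plots drawn with matplotlib 3.10.9.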

Additional observations from a re-analysis of the deposited data

How the results depend on the processing

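Calls between *sin3∆* and *mig1∆* kept within 1.5 times of 842 higher and 669 lower except with no fold threshold, which gave 2079 and 1964 (2161 and 2002 for *sin3∆* against the wild type, 417 and 265 for *mig1∆* against the wild type). Leaving out each *sin3∆* or *mig1∆* library in turn gave 796 to 880 higher and 651 to 680 lower, and 53 to 55 higher and 34 to 37 lower for *mig1∆* against the wild type. No fit left out a wild-type library, so the dependence of these calls on each of them is unknown. Of silent genes, 33 to 36 were higher and 3 to 5 lower. A filter at 10 RPKM left 15 and 0 of them, a pseudocount of 5 gave 18 and 0, quantile normalization left 2 lower and the test against 1.5-fold 1. For *mig1∆* against the wild type, the pseudocount of 5 gave 32 higher, and the test against 1.5-fold 22 and 11. Silent genes on in *sin3∆* numbered 14 with silence under 0.5 RPKM, 45 under 2 RPKM, 162 under 5 RPKM, 34 when on meant 2 RPKM and 14 when it meant 10 RPKM, and 27 to 37 with a library left out. In *mig1∆* they numbered 6 under 2 RPKM, 75 under 5 RPKM, 2 when on meant 2 RPKM, and 3 to 10 with a library left out. The replicate numbers did not pair the samples (r = 0.016 over 5628 genes), and the replicate block gave 846 higher and 668 lower, with 35 and 5 of the silent genes, and 53 and 36 for *mig1∆* against the wild type. Of 1527 values of named genes under an alternative, 1483 kept direction and call, 29 lost the call, 15 gained it and 0 reversed. Scaling moved the median of all genes by less than 0.1. Quantile normalization cut the ribosomal protein genes called higher to 11, beside 79 of 132 as deposited. With 2 libraries a strain and no counts, differences in genes near 1 RPKM are the least certain, and short genes such as *DDR2* can stand at 0 in 1 replicate only.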

Other observations

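Several biosynthetic gene groups that belong to neither repressor's best-known targets were higher in *sin3∆* than in *mig1∆*, beside a median log2 difference of 0.00 and 15.0% called higher over all genes. All 8 tested lysine synthesis genes were called higher (median log2 difference 2.08), as were 9 of 11 branched-chain amino acid genes (2.13) and 6 of 7 histidine genes (2.15). Of 23 genes for iron and siderophore uptake, 14 were called higher and 0 lower (median 1.28), and of 24 ergosterol genes 13 and 0 (median 1.02). Of 24 genes for protein folding in the endoplasmic reticulum, 0 were called higher and 17 lower (median -1.42). Not all of these groups set *sin3∆* apart from *srb2∆*. Between those strains, 0 of the folding genes were called in either direction (median -0.20), and 1 ergosterol gene in each (median 0.12). Of the iron genes 6 were called higher and 1 lower in *sin3∆* than in *srb2∆*. The lysine and branched-chain groups had 7 higher each, the histidine group 3, and 0 lower.

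A pair of neighbours on chromosome I had opposite values. The naming rule took both, and they were set side by side after their values were seen. *UIP3* and *KTD1* belong to the DUP240 family of membrane proteins, whose sequences are alike. *UIP3* had 154 and 137 RPKM in *sin3∆* and 179 and 167 RPKM in *srb2∆*, and was listed at 0 in both *mig1∆* libraries. *KTD1* was listed at 0 in *sin3∆* and *srb2∆*, against 45.99 and 44.95 RPKM in *mig1∆* and 49.2 and 39.97 RPKM in the wild type. On chromosome IV, *PRM7* had 216 and 225 RPKM in *sin3∆* and 183 and 179 RPKM in *srb2∆*, against 2.45 and 2.62 RPKM in *mig1∆*. In each of these genes *sin3∆* lay with *srb2∆* and *mig1∆* with the wild type.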
